A study of Mus musculus with 2 samples.

Results

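Small chromosome domains were described here, each an interval between a pair of neighbouring chromatin boundaries whose starts lay at most 25 bins of 5 kb apart. Boundaries were mapped in mature olfactory sensory neurons of mice with a conditional Ldb1 knockout. Members were selected by spacing alone: boundaries were sorted along each chromosome, and every pair of neighbours within that limit was kept with the interval between them. This gave 427 of 7590 intervals between neighbouring boundaries and 825 of 7610 boundaries, 29 of which served 2 small intervals. The spacing chose the members and is given as a description only. It was 50 kb at the lowest and 23 bins at the median, and 93 intervals stood at the limit of 25 bins. The limit fell on a slope and not in a gap: 165 intervals were spaced 24 or 25 bins apart, and 203 lay just outside it, at 26 or 27 bins.

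The assay was in situ Hi-C, which joins and counts DNA ends that lie close together in fixed nuclei. Per the labels, all samples came from neurons sorted by flow cytometry from olfactory epithelium, taken from adult animals of both sexes and of unspecified strain. Per their description they formed 1 group, Ldb1-KO driven by OMP-Cre, while the labels' field for modifications reads None. There were 2 biological replicates of 1000000 cells each, without treatment. OMP-Cre works from the Omp promoter, which is active in mature olfactory neurons, so Ldb1 is deleted late in the life of the cell. Both replicates were merged into 1 boundary list on the mouse build GRCm38, so no value below has a replicate error, the depth behind each boundary is unknown and no test between conditions was possible. No control library was analysed here, and a list of boundaries shows neither whether Ldb1 was lost nor whether the sorted cells expressed their markers. Each boundary is a bin of 5 kb with a strength, a score of the authors. Boundaries with a strength of at least 0.5 were classed strong, the others weak, and the lowest strength was 0.2.

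Cohesin, a ring-shaped complex, is thought to extrude chromatin loops until it meets obstacles. The best known obstacle is CTCF bound to DNA with its motif pointing towards the oncoming cohesin, so loops and domains often lie between motifs that face each other. Active gene promoters also lie at many boundaries. In olfactory neurons the chromosome fold has a further role, since each neuron expresses 1 olfactory receptor gene and enhancers on many chromosomes, bound by Lhx2, Ebf1 and the bridging protein Ldb1, meet there.

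Inward-facing matches to the CTCF core consensus within 10 kb of both bins were found at 13 of the 427 small intervals (3.04%). The share was 2.19% of all intervals and 2.78% of those of 130 to 200 kb. Outward-facing matches were found at 18 small intervals (4.22%), against 2.82% of all intervals and 3.99% of those of 130 to 200 kb. Of the 13 small intervals with inward-facing matches, 3 had strong boundaries on both sides. Their sequences are shown because they are the small intervals where both strong boundaries carried letters that face each other. Capitals mark the core, the consensus nearest to each bin is given 5′ to 3′ on the strand that holds it, and coordinates are GRCm38. A left-hand match on the forward strand and a right-hand match on the reverse strand both point into the interval.
let-7 interval, left, chr15:85599037-85599076, forward strand: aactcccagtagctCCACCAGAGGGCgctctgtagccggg
let-7 interval, right, chr15:85709501-85709540, reverse strand: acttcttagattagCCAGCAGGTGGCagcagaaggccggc
Krt8 interval, left, chr15:101977155-101977194, forward strand: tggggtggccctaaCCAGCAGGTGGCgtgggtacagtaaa
Krt8 interval, right, chr15:102065808-102065847, reverse strand: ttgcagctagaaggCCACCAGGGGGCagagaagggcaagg
Tns3 interval, left, chr11:8424386-8424425, forward strand: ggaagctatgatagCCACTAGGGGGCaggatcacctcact
Tns3 interval, right, chr11:8524002-8524041, reverse strand: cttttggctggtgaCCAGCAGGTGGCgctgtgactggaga
None of these 6 matches lay in a soft-masked repeat. The left match of the Krt8 interval lay in the boundary bin itself, and the other 5 lay 0.475 to 9.40 kb from theirs. A match is a stretch of letters, and CTCF binding was not measured here.

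The let-7 interval is named after 2 microRNA genes in it, which were picked out after the values were seen. It ran from 85595001 to 85710000 on chromosome 15 and held no protein-coding start site. Its sides had strengths of 1.51 (left) and 0.929 (right), the second highest weaker side of any small interval. The microRNA hairpins Mirlet7c-2 and Mirlet7b lay inside it on the forward strand, 3.30 and 2.60 kb before the right bin. The let-7 family represses growth-promoting messenger RNAs and rises as cells differentiate. The mature 5′ arms are printed from RefSeq, with the seed (bases 2 to 8) in capitals, to show that both products share it.
let-7c-5p, chr15:85706616-85706637, forward strand: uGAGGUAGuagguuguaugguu
let-7b-5p, chr15:85707325-85707346, forward strand: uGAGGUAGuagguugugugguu
In all, 39 of 1005 RefSeq microRNA hairpins (3.88%, exact 95% interval 2.77 to 5.27%) lay inside 30 small intervals. For comparison, 4.03% of protein-coding genes had their start site in a small interval.

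Boundaries of small intervals were weaker on the authors' scale than the rest of the list. Of the 825, 333 (40.4%, exact 95% interval 37 to 43.8%) were strong, against 52.9% of all boundaries and 54.4% of the 6785 others. Their median strength was 0.397 (quartiles 0.257 and 0.746), against 0.558 for the others. The shift appeared at both ends of the scale. A strength under 0.25 was found in 181 members (21.9%), against 13.8% of all and 12.8% of other boundaries, and a strength of at least 1.5 in 34 (4.12%), against 8.99% of other boundaries. The 29 boundaries shared by 2 small intervals had a median of 0.328, with one of them, between Wnt7b and let-7, reaching 1.51. All intervals of shares here are exact binomial intervals at 95%. They cover counting error only and treat neighbouring boundaries as independent, which they need not be.

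A strong boundary was usually paired with a weak one. Both sides were strong in 27 small intervals (6.32%, interval 4.21 to 9.07%), against a background of 28.1% of all intervals, 26% of those of 130 to 200 kb and 30.6% of those above 200 kb. Exactly 1 side was strong in 285 (66.7%), against 49.5% of all intervals and 55.3% and 46% in the longer classes. Both were weak in 115 (26.9%), against 22.5% of all intervals and 18.8% and 23.5% in the longer classes. The weaker side had a median strength of 0.264, against 0.350 at 130 to 200 kb and 0.349 above 200 kb. The stronger side had a median of 0.722, against 0.866 and 0.893. The stronger side was at least 2 times the weaker in 255 small intervals (59.7%), against 50.7% and 48.1%. Neither direction along the chromosome was preferred: the left side was stronger in 221 and the right in 206, and their medians were 0.389 and 0.396. Across the 427 pairs, left and right strengths had a Spearman's rho of -0.349 (Pearson's r = -0.272). The same coefficient was -0.120 across the 1904 intervals of 130 to 200 kb and 0.059 across the 5259 longer ones. These coefficients are descriptions: all pairs come from 1 contact map, and neighbouring pairs share boundaries.

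**Figure D1:**
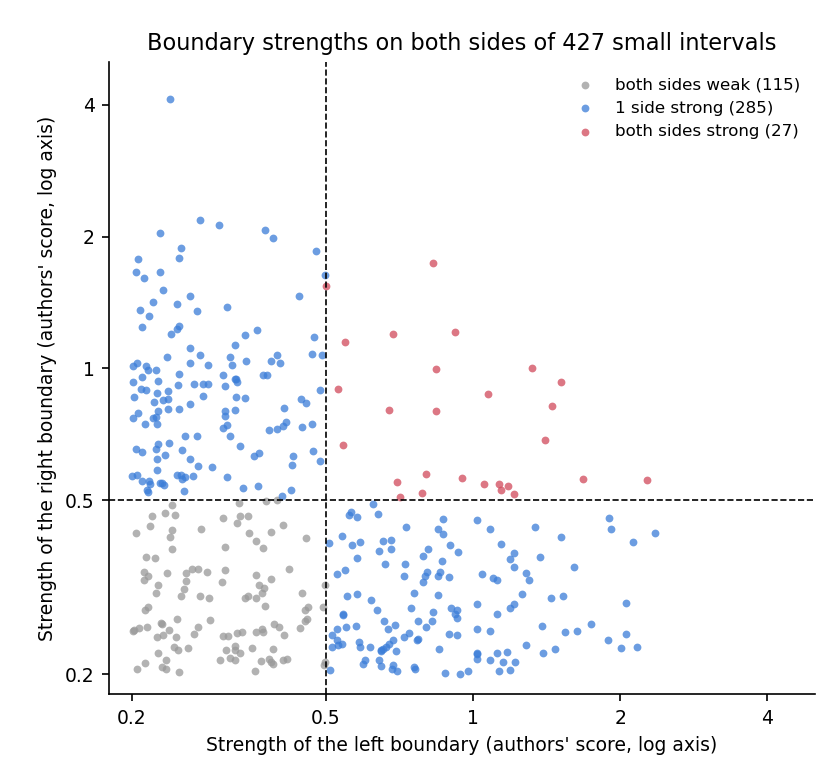
Strength of the left boundary (horizontal axis) against that of the right boundary (vertical axis) for each of the 427 small intervals, both as the authors' score on log axes, with dashed lines at the class limit of 0.5. The upper right field, where both sides are strong, holds 27 points and the lower left, where both are weak, holds 115.

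Strong pairs thinned out as the spacing fell. None of the 84 intervals of 50 to 95 kb had a strong boundary on both sides (exact upper limit 4.30%). At 100 to 110 kb there were 5 of 118 (4.24%), and at 23 to 25 bins there were 22 of 225 (9.78%). The smallest spacing between a pair of strong neighbours was 100 kb, and 12 of the 27 stood at the limit. No step was seen at the limit: 10.9% of intervals of 24 and 25 bins and 12.3% of those of 26 and 27 bins had both sides strong. A least distance between boundaries may be a setting of the caller, for which no value was found, and its part in these values was not tested.

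**Figure D2:**
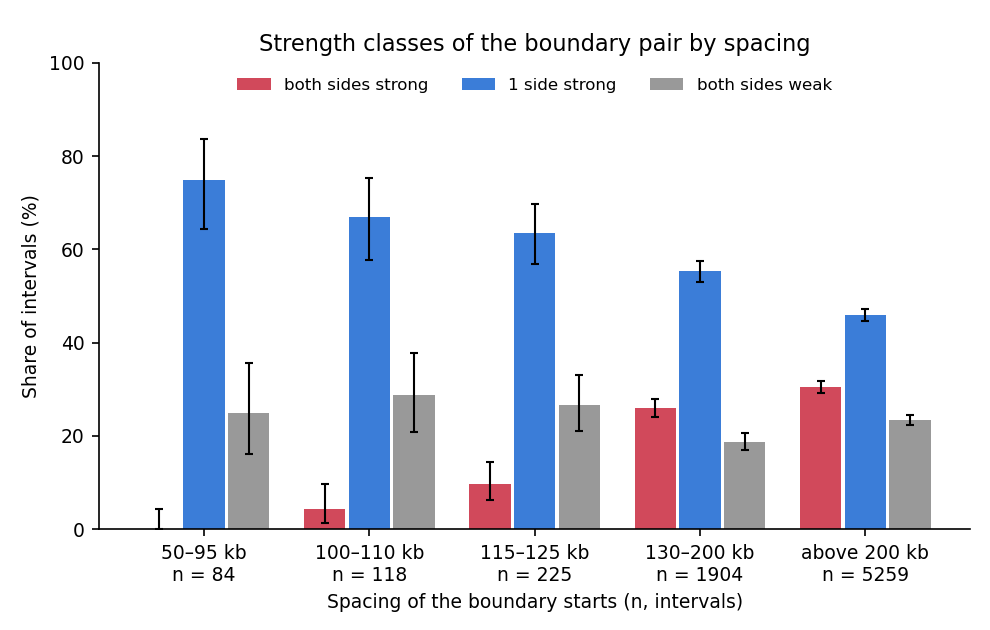
Share of intervals (vertical axis, percent) with both sides strong, 1 side strong or both sides weak, by spacing of the boundary starts, with n below each group. Bars are shares and lines exact 95% binomial intervals; both-strong pairs go from 0 of 84 at 50 to 95 kb to 30.6% above 200 kb.

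Among the small intervals with the highest weaker side, the first ran from Ppil1, a spliceosome-associated isomerase, to Fgd2 on chromosome 17 (29255001 to 29375000), with strengths of 1.32 and 1.00. It was also the highest weaker side of all 427. Ece1, which makes active endothelin, had an interval of its own with strengths of 0.920 and 1.21. The interval of Sdhb, a subunit of respiratory complex II, also held Atp13a2, Mfap2, Crocc and Necap2 and stood between 1.07 and 0.875. That of Bhlha9, Trarg1 and Gosr1, the last a Golgi SNARE protein, had 0.840 and 0.995. Med17, a core subunit of the Mediator complex, shared its interval with Taf1d, 4931406C07Rik and Cep295 (0.827 and 1.74). The tetraspanin gene Cd82 had an interval of its own (0.838 and 0.799). Its sides were the most even of the 10 intervals with the highest weaker side, with a difference of 0.0398. Pcbd1 and Sgpl1, the lyase that degrades sphingosine phosphate, lay between 0.685 and 1.20. Krt8 and Krt18, the keratin pair of simple epithelia, lay with Eif4b between 1.40 and 0.685. In each of these 2 last intervals the boundaries were 100 kb apart, the shortest spacing among strong pairs.

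Most of the narrowest intervals had 1 strong side, as did 66.7% of all small intervals. The smallest of all lay on chromosome 5 (23310001 to 23355000), spaced 50 kb, with strengths of 0.204 and 0.654 and no protein-coding gene. The next, on chromosome 9 at 60 kb, was touched by Tpm1, which encodes the actin-binding protein tropomyosin, and had strengths of 0.263 and 1.03. At 65 kb, Chordc1, an Hsp90 cochaperone, was the only start site between 1.13 and 0.203. The other interval of 65 kb held Prcc, Hdgf, Mrpl24, Isg20l2 and Rrnad1 and was weak on both sides (0.408 and 0.216). Among those of 70 kb, Trh, the precursor of thyrotropin-releasing hormone, lay between 0.264 and 0.621, and the mucin gene Muc13 between 0.264 and 1.46. Heatr1, needed for ribosome assembly, lay between 0.875 and 0.201. The group of Pla2g3, Inpp5j and Selenom lay between 0.224 and 0.654. The 70 kb interval from Kifc2 to Lrrc14 on chromosome 15 held 8 start sites between 0.257 and 0.564. Of 8 intervals tied at 75 kb, the one on chromosome X, with no protein-coding gene, had 0.264 and 0.828. Over all 17 intervals of at most 75 kb, 12 had 1 strong side, 5 were weak on both and none was strong on both.

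The strongest boundary of the whole list, 4.13, was the right side of a small interval on chromosome 1 (88215001 to 88305000). Its partner had a strength of 0.240, which gave the largest difference between sides, 3.89. The interval held the start sites of Mroh2a, of Hjurp, the chaperone that loads the centromeric histone, and of Trpm8, an ion channel that senses cold. The next largest differences were found at Lrrc8b, a subunit of volume-regulated anion channels (2.36 and 0.420), and at an interval of chromosome 8 with no protein-coding gene (2.16 and 0.231). Cenpp, Nol8 and Iars, the isoleucyl-tRNA synthetase, lay between 0.276 and 2.18. Cfap69, the metalloreductase gene Steap2 and its relative Steap1 lay between 0.302 and 2.13.

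Genes were dense inside the small intervals. Their insides summed to 44.8 Mb, 1.70% of the 20 chromosomes, and held 877 of 21755 protein-coding start sites (4.03%). This was 1.96 start sites per 100 kb (exact 95% Poisson interval 1.83 to 2.09), against 1.5 (1.46 to 1.55) at 130 to 200 kb and 0.704 above 200 kb. The density was 2.22 at 50 to 95 kb, 2.12 at 100 to 110 kb and 1.82 at 23 to 25 bins, and their intervals overlapped. Close to the limit the density was 1.68 (1.5 to 1.87) just inside it and 1.76 (1.6 to 1.93) just outside, with overlapping intervals. The genes themselves had a usual length, with a median of 17.5 kb against 17.4 kb for all protein-coding genes. Of the 877, 711 (81.1%) lay wholly inside their interval and 166 ran out of it. The median GC content was 44.5%, against 44.0% at 130 to 200 kb and 41.7% above, and genes covered a median of 62.5% of the inside, against 60.0% and 44.4%.

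The number of start sites per small interval ranged from none to 13. None was found in 91 intervals (21.3%), against 24.8% of all intervals and 20.5% of those of 130 to 200 kb, which are longer. There was 1 in 123, 2 or 3 in 133 and 4 or more in 80. The fullest interval, on chromosome 17 from Chtf18 to Jmjd8 (25720001 to 25830000), had 13 start sites between strengths of 0.444 and 0.850. On the same chromosome lay the interval from Ier3 to Ppp1r10 with 11 (0.893 and 0.333). That from Aif1 to Ddx39b, an RNA helicase, held 9 start sites within a spacing of 80 kb (0.249 and 0.914). The genes of the cytokines tumour necrosis factor and lymphotoxin (Tnf, Lta and Ltb), picked out after the values were seen, all lay in it. Between Zfp941 and Cox8b on chromosome 7 there were 10 (2.05 and 0.247), and between Cpsf7, a cleavage and polyadenylation factor, and Vwce on chromosome 19 there were 8 (0.338 and 0.533). The fifth place was a tie of 5 intervals with 8 start sites. Of the 9 intervals with 8 or more, 8 had 1 strong side and 1, on chromosome 10, was weak on both. Over all small intervals 66.7% had 1 strong side.

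The 91 intervals with no start site had a median GC content of 41.0%, against 45.5% in the 336 others. Their median share of bases in soft-masked repeats was 35.8%, against 28.3%. Protein-coding genes did not touch 60 of them, and in 34 no gene of any annotated type began. Both sides were weak in 37 of the 91 and in 78 of the 336, and both strong in 3 and in 24. Their weaker side had a median of 0.243, against 0.277. Chromosome X contributed 12 of its 21 small intervals to this set. Its small intervals had 0.776 start sites per 100 kb (0.452 to 1.24), against 0.556 (0.520 to 0.594) in the other intervals of chromosome X, so their intervals overlapped. The share of intervals that were small ran from 3.13% (1.51 to 5.69%) on chromosome 12 to 7.49% (4.81 to 11%) on chromosome 15. The exact intervals of these 2 extremes overlapped. On chromosome X the share was 4.96%. Gene density inside was highest on chromosome 17, at 3.73 start sites per 100 kb, followed by chromosome 15 at 3.08.

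Start sites gathered at the boundaries of small intervals and ran on into the inside. A protein-coding start site lay within 10 kb of 354 members (42.9%, interval 39.5 to 46.4%), against 31.1% of all boundaries and 29.7% of the others. In the bin itself there were 16.2 per 100 bins, against 10.4 in other boundaries. From 5 to 20 kb the inner side had 11.2 per 100 bins and the outer side 8.42, against 6.22 around other boundaries. From 25 to 45 kb the values were 9.32 inside, 7.29 outside and 5.15 around other boundaries. Both the inner and the outer flank thus had more start sites than the flanks of other boundaries. Of the members, 343 (41.6%) overlapped an exon of a protein-coding gene, against 31.7% of the others. In 99 intervals (23.2%) both bins had a start site within 10 kb, against 13.7% of all intervals and 20% of those of 130 to 200 kb. The stronger and the weaker side did not stand apart in this: a start site was near 183 stronger and 188 weaker sides, near only the stronger in 84 and only the weaker in 89.

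**Figure D3:**
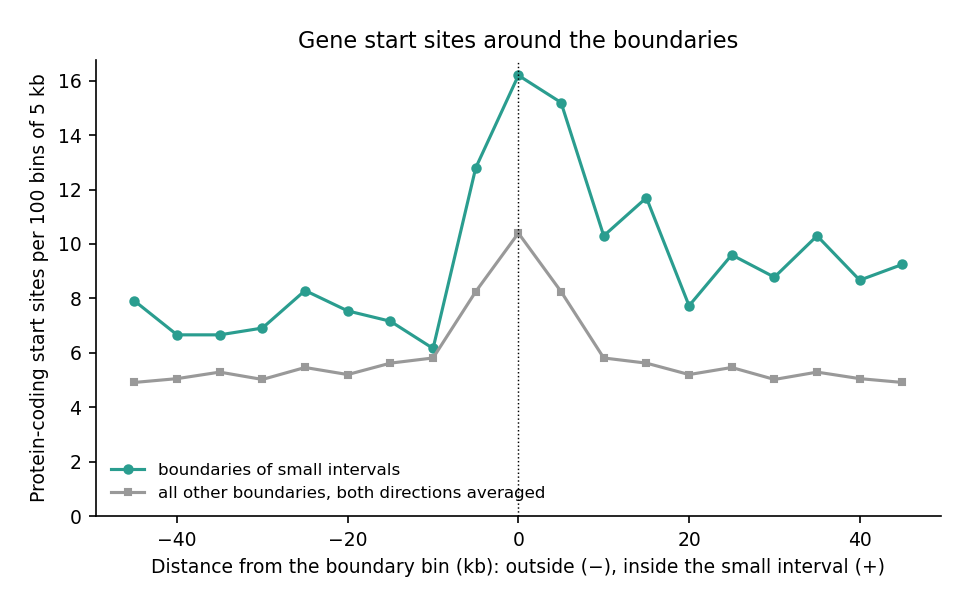
Protein-coding start sites per 100 bins of 5 kb (vertical axis) by distance from the boundary bin in kb (horizontal axis; negative outside, positive inside the small interval). Circles are boundaries of small intervals, which reach 16.2 in the bin, and squares all other boundaries with both directions averaged, which reach 10.4.

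Promoters placed wholly inside a member bin were rich in CpG, the dinucleotide that marks most housekeeping promoters. RefSeq promoters of 300 bases matched 16433 genes by symbol, and 94 of them lay in member bins, with a median of 24 CpG. The 520 in other boundary bins had 21 and all matched promoters 14. The 250 bases before the RefSeq start are given for the promoters in the 2 strongest of these bins, with each CpG in capitals, since they differ widely in CpG count. Trpm8 stood in the bin of strength 4.13 (chromosome 1, 88305001 to 88310000) and had 1 CpG in these 250 bases. GENCODE places a start of Trpm8 farther upstream, at 88277661 inside the interval, so its start site at the boundary depends on the annotation. Sec13 encodes a subunit of the COPII vesicle coat and of the nuclear pore. It stood in a bin of strength 1.38 (chromosome 6, 113740001 to 113745000) and had 14 CpG in its 250 bases. The medians above were counted over 300 bases.
Trpm8, chr1:88306485-88306734, forward strand: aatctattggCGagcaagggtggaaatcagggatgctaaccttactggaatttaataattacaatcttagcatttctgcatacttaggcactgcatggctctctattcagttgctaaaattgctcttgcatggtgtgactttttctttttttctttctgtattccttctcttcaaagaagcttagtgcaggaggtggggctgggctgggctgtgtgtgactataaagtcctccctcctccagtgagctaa
Sec13, chr6:113740682-113740931, reverse strand: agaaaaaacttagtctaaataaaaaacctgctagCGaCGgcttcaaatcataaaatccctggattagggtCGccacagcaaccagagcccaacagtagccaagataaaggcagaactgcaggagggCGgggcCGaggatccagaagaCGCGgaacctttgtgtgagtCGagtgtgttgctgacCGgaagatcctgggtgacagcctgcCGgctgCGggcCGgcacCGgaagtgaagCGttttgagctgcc
None of the 94 promoters in member bins held the CTCF core consensus on either strand (exact upper limit 3.85%), against 6 of 520 in other boundary bins (1.15%) and 93 of all 16433 (0.566%), shares that the limit includes.

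The CTCF core consensus lay within 10 kb of 247 members (29.9%, interval 26.8 to 33.2%), against 24.4% of all boundaries and 23.8% of the others. With a limit of 150 kb the share of members was 31.2%. Member bins had a median GC content of 44.8%, against 42.5% in the other boundary bins, and its part in these shares was not tested. Members with the consensus within 10 kb had a median strength of 0.501 and those without it 0.375. With and without a start site within 10 kb the medians were 0.408 and 0.391. A match lay near 136 stronger and 120 weaker sides, near only the stronger in 79 intervals and only the weaker in 63. Matches were ordered by strand. Of 240 within 20 kb on the inner side, 163 (67.9%, interval 61.6 to 73.8%) pointed into the interval. On the outer side 52 of 181 (28.7%, 22.3 to 35.9%) did, so on both flanks most matches pointed away from the boundary. Counted over boundaries, 69.4% of the 421 matches around members pointed away (64.7 to 73.7%), against 67.7% around all boundaries and 67.4% around the others. Start sites within 20 kb were read away from the boundary in 390 of 652 cases around members (59.8%, 55.9 to 63.6%), against 55.9% around all boundaries and 55.1% around the others.

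**Figure D4:**
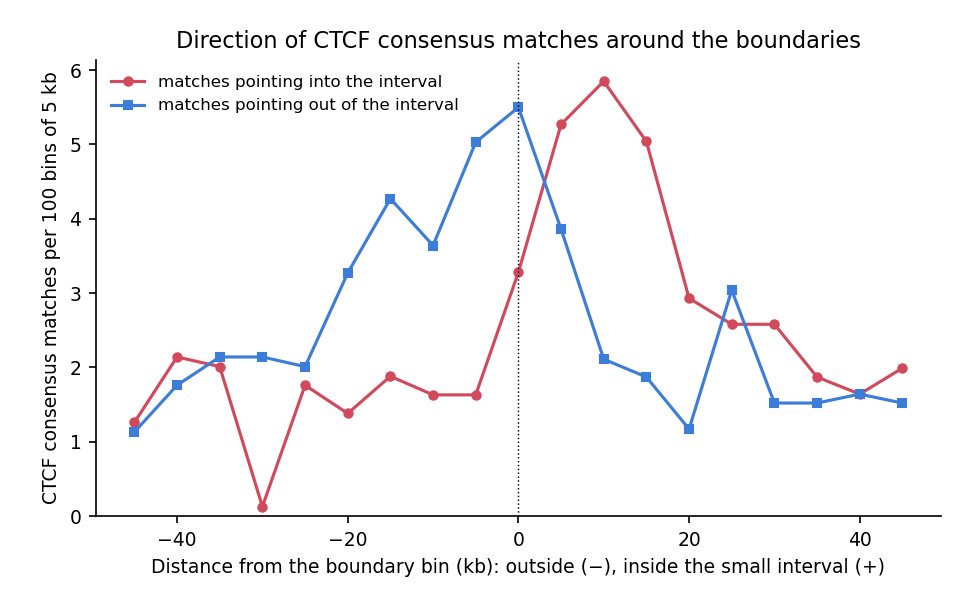
CTCF core consensus matches per 100 bins of 5 kb (vertical axis) by distance from the boundary bin in kb (horizontal axis; negative outside, positive inside), for matches that point into (circles) and out of (squares) the small interval. Matches pointing in peak at 5.85 per 100 bins 10 kb inside, and matches pointing out peak at 5.50 in the bin and reach 5.03 just outside.

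Both bins had a match within 10 kb in 57 intervals (13.3%), against 7.88% of all intervals and 11.1% of those of 130 to 200 kb. Inward-facing matches were present in 13 (3.04%, interval 1.63 to 5.15%), against 2.19% of all intervals and 2.78% of those of 130 to 200 kb. Outward-facing matches were present in 18 (4.22%, interval 2.52 to 6.58%), against 2.82% of all intervals and 3.99% of those of 130 to 200 kb. Matches on the same strand were present in 36 (8.43%, interval 5.97 to 11.5%), against 4.69% and 7.04%. Just outside the limit, at 130 and 135 kb, these shares were 3.94% and 9.36%. The small intervals thus did not stand apart from somewhat longer ones in either share. An interval with several matches could count in more than 1 way. Outward-facing matches also occurred among the 27 strong pairs, as at Bhlha9, Trarg1 and Gosr1 (0.840 and 0.995). The inward-facing share of the 27 was 11.1%, and the share among strong pairs of longer spacing was not computed. It rests on the 3 intervals whose letters are given above. Next to them in strength of the weaker side came Adcyap1r1, a neuropeptide receptor (0.397 and 0.725), the interval of Cd164l2, Gpr3, Map3k6, Sytl1 and Tmem222 (0.385 and 0.422), and that of Neu3, Xrra1 and Spcs2 (0.659 and 0.358).

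Runs of adjoining small intervals numbered 29, each of 2 intervals and 3 boundaries, and 369 small intervals adjoined no other. Since only 427 of 7590 intervals were small, few were bound to adjoin, and whether the number of runs departs from that share was not tested. On the outer sides, where the next interval is not small by definition, the next boundary came after a median of 245 kb. The median over all intervals that were not small was 275 kb. The run with the highest median strength joined the interval of 7530416G11Rik and Wnt7b, a secreted Wnt ligand, to the let-7 interval, with strengths of 0.232, 1.51 and 0.929. On chromosome 4 Alpl, an alkaline phosphatase, adjoined Ece1 (0.280, 0.920 and 1.21). A run on chromosome 17 went from Nkx2-5, a heart transcription factor, to Ggnbp1 (0.226, 0.673 and 0.801) and held 8 start sites. Prpf40b to Bcdin3d on chromosome 15 (0.587, 0.231 and 0.547) and Mertk, a receptor that clears dying cells, with Fbln7 on chromosome 2 (1.14, 0.526 and 0.239) came next.

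Gene families differed in how many members started inside small intervals, against 4.03% of all protein-coding genes. Olfactory receptor genes had 19 of 1092 (1.74%, interval 1.05 to 2.70%), zinc finger genes with Zfp symbols 3 of 394 (0.761%, 0.157 to 2.21%) and vomeronasal receptors of type 1 had 1 of 206, Vmn1r31 (0.485%, 0.0123 to 2.67%). The upper ends of these intervals lie below 4.03%, as do those of 0 of 120 vomeronasal receptors of type 2 (3.03%) and 0 of 99 cytochromes P450 (3.66%). Such families sit in tandem arrays, so their members are not independent. None of 39 Hox genes, 56 clustered protocadherins and 15 trace amine-associated receptors started in a small interval either, with upper limits of 9.03%, 6.38% and 21.8%.

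For the other families the interval included the background. Proteasome subunits had 5 of 50 (10%, 3.33 to 21.8%), among them Psma4, Psmd13, Psma1 and Psma5. The list drawn by symbol for translation factors had 5 of 67 (7.46%, 2.47 to 16.6%): Eif4b, Eif4e1b, Eif3b, Eif2a and, by its symbol only, the kinase gene Eef2k. The list drawn by symbol for subunits of Mediator, RNA polymerase II and its TFII factors had 5 of 82. Among them were Med17, Med12l, Taf2 and, by its symbol only, Taf1d. Cytosolic ribosomal proteins had 4 of 84 (4.76%): Rpl23, Rps14, Rps10 and Rpl11. Mitochondrial ribosomal proteins had 3 of 78: Mrpl55, Mrps18b and Mrpl24. Respiratory chain subunits had 4 of 93 (4.30%): Sdhb, Ndufa6, Ndufs7 and Cox8b. Solute carriers had 13 of 371 (3.50%), with the amino acid transporter Slc7a5 between the strongest weaker sides (0.501 and 1.54), then Slc25a29 and Slc25a47 in 1 interval (0.467 and 0.746). Developmental regulators had 3.16 to 6.45%: Wnt10a, Wnt7b and Fgf1 among 52 Wnt, Fgf and Bmp ligands, Tlx1, Pax4 and Nkx2-5 among 95 homeobox genes outside Hox, and Foxj2, Foxn1, Foxh1 and Sox18 among 62 Sox and Fox genes. Channels had 3 of 108 (Kcna5, Scn4a and Kcns1), keratins 2 of 53 and histones 1 of 83 (H3f3b).

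**Figure D5:**
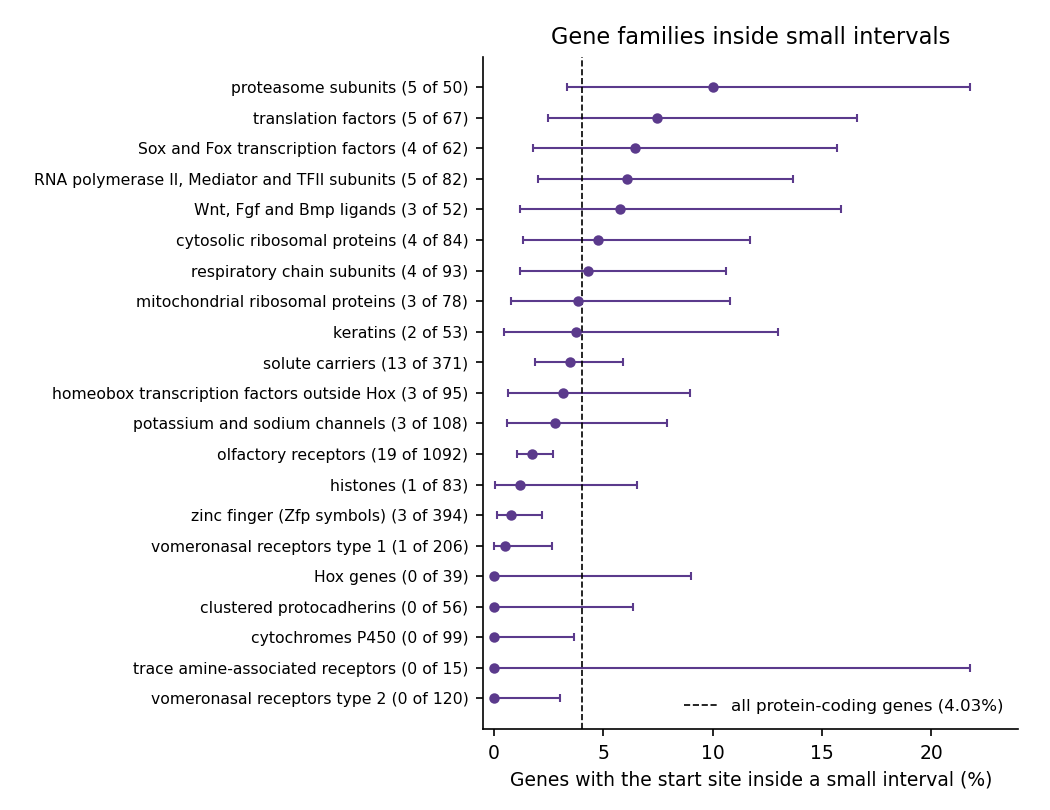
Share of each gene family whose start site lay inside a small interval (horizontal axis, percent), with counts beside each name. Points are shares, bars exact 95% binomial intervals and the dashed line the 4.03% of all protein-coding genes; the whole bars of olfactory receptors, Zfp genes, both vomeronasal families and cytochromes P450 lie left of it.

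Among marker genes of the cells of the olfactory epithelium, the exact intervals of the shares include 4.03% for every cell type listed but immature neurons. Of 28 markers of mature olfactory neurons 1 was inside, Cngb1, a subunit of the cyclic nucleotide-gated transduction channel (1.08 and 0.429). Of 16 markers of immature neurons 3 were: the stathmin genes Stmn2 (0.788 and 0.325) and Stmn4 (0.213 and 0.746), each the only start site of an interval of 90 kb, and Gng8 (0.313 and 0.565), a G protein subunit. This share (18.8%) had an interval of 4.05 to 45.6%, whose lower end lies just above 4.03%, and it rests on 3 genes among 32 lists examined. Neurog1, the factor that commits progenitors to the neuronal lineage, lay alone in an interval of 90 kb (0.658 and 0.264). Among 30 axon guidance genes the receptors Nrp2 (1.08 and 0.216) and Unc5b (1.63 and 0.251) were inside. None of 24 partners of Ldb1 and regulators of receptor choice was, an upper limit of 14.2%. Of 17 genes of CTCF and cohesin, Nipbl, the cohesin loader, was inside (0.409 and 0.740), and of 18 immediate early genes Btg2 (0.210 and 0.954). Of other cell types, Krt18 was the only one of 13 markers of supporting and gland cells and Aif1 the only one of 15 immune and vascular markers, and none of 10 horizontal basal cell markers was inside.

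Olfactory receptor clusters overlapped 6 small intervals (1.41%), against 1.42% of all intervals. Of these, 5 are named here, after their values were seen. None of the 6 was strong on both sides, against 6.32% of all small intervals, and 6 are too few to set them apart from that share. On chromosome 4 the interval of Olfr159, Olfr156, Olfr157 and Olfr155 lay between 0.485 and 0.891, and on chromosome 8 that of Olfr372, Olfr373 and Olfr374 between 0.414 and 0.755. The interval of Osbp, an oxysterol-binding protein, on chromosome 19 had 0.375 and 2.07. Weak on both sides were those of Olfr1189 to Olfr1193 on chromosome 2 (0.230 and 0.262) and of Olfr506 to Olfr512 on chromosome 7 (0.201 and 0.251). Their GC content was 37.2% and 38.2%, under the median of 44.5%.

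Of 11 olfactory receptor enhancers in the RefSeq annotation, each known by the name of a Greek island or as H, 1 lay inside a small interval. For comparison, 44 of all 1015 RefSeq enhancers lay inside, and the insides made up 1.70% of the chromosomes. A single enhancer among 11 is too few to set them apart from these shares. Sifnos, of 1045 bases on chromosome 11 (87965561 to 87966605), began 0.561 kb from a boundary of strength 1.44 and shared the interval with Dynll2, a dynein light chain, and Srsf1, a splicing factor. The right boundary of that interval, spaced 95 kb away, had a strength of 0.299. Its position was noticed after the values were seen. Ikaria on chromosome 7 lay 11.5 kb from the left boundary of the Neu3 interval, on its outer side. The other 9 lay at least 476.6 kb from any boundary of a small interval. Sifnos holds the Ebf core CCCNNGGG, which reads the same on both strands, at 2 places, shown with 26 bases on either side because Ebf1 is among the factors that bind these enhancers.
Sifnos, first core, chr11:87965643-87965702, forward strand: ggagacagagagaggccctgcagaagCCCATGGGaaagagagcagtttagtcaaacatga
Sifnos, second core, chr11:87965880-87965939, forward strand: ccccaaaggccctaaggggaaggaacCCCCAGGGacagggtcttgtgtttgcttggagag
Among 113628 windows of that length on chromosome 11, 19.1% hold the core at least once and 4.26% at least 2 times. A match shows the letters and not that Ebf1 was bound.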

How the data were processed

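Boundary strength is a score that the authors computed from the diamond insulation of contacts pooled over both replicates and deposited for 5 kb bins of GRCm38, as the design text and submitters' notes state. Caller, version, window and mask were not given in the sources used. Coordinates were joined to the GRCm38.p6 sequence, GENCODE M21 genes (21755 protein-coding; gene ends as start sites) and RefSeq elements, promoters and microRNAs. The inside of an interval excludes both bins. The CTCF core consensus of 12 bases had 12728 matches, both strands counted. Scans and counts were tested on simulated data. Python 3.11.15 with numpy 2.4.6, pandas 2.3.3 and scipy 1.17.1 was used.

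The members, the 32 gene lists and the rules were chosen with earlier results of these data known. Named genes are the 10 smallest spacings, 10 highest weaker sides, 5 largest differences, 5 fullest intervals, 5 strongest runs and up to 4 genes per list by weaker side, with the first and last of intervals with more than 6 genes; exceptions are stated. Alternatives varied the limit, classes, windows, consensus and gene sets. No test was run, since 1 pooled list gives no replicate values. Chromosome Y was not analysed. Some genes that the rules name are not reported here.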

Additional observations from a re-analysis of the deposited data

How the results depend on the processing

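No paired analysis was possible because both replicates were pooled into 1 list before deposition, and for the same reason no replicate could be left out. Of 58 alternatives over 9 results, 31 stayed within the main value's interval (within 1.5 times for the count of intervals) and 27 moved past it. These values are descriptions with no test, and the cause of a move was not tested beyond what each setting does. With a limit of 100 kb there were 113 small intervals, 2.65% had both sides strong, the density was 2.19 start sites per 100 kb, 33.9% of members had a CTCF consensus within 10 kb and the median GC content was 45.9%. With a limit of 150 kb there were 1012, 45.2% of members were strong, 12.6% of intervals had both sides strong and the density was 1.79. Kept to the 27 intervals with both sides strong, 11.1% had no start site, 38.9% of members had a start site and 48.1% a consensus within 10 kb, 11.1% of intervals had inward-facing matches and the median GC content was 47.7%. Counting start sites of all protein-coding transcripts gave 5.42 per 100 kb. Counting genes of every type gave 3.55, and 7.96% of intervals without a start. In the bin alone, 13.6% of members had a start site, 8.48% a consensus and 0% of intervals inward-facing matches; within 25 kb these were 61.9%, 47.6% and 8.43%. Without soft-masked matches 25% of members had a consensus. With 1 mismatch allowed 92.5% had one and 60.9% of intervals had inward-facing matches, so the CTCF values hold for exact matches. The depth of the contact map limits which weak or narrow domains can be called and is unknown here.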

Other observations

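Genes long enough to run through a whole small interval formed a small set, picked out after the values were seen. A protein-coding gene spanned 19 of the 427 small intervals from bin to bin (4.45%, exact 95% interval 2.70 to 6.86%), against 3.56% of all intervals and 3.99% of those of 130 to 200 kb. In 5 of them this was Gm20388, a gene model of 4.43 Mb on chromosome 8 that spans many other genes. The other 14 each lay in a different gene, and 13 of these held no start site. They included Auts2 (0.564 and 0.394), a regulator of neuronal development, Cacna1d (0.216 and 0.990), a calcium channel, Epha6 (0.415 and 0.217), an ephrin receptor, and Dennd1a (1.12 and 0.223). None of the 14 had strong boundaries on both sides, against 6.32% of all small intervals, and 14 are too few to set them apart from that share. Among the intervals spanned by Gm20388, those of Zdhhc7 (1.18 and 0.537) and of Slc7a5 (0.501 and 1.54) were strong on both sides.

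The share of genes that started inside small intervals, 4.03% for protein-coding genes, was 3.52% of 2958 antisense genes (2.88 to 4.24%), 3.10% of 2196 microRNA genes of GENCODE (2.41 to 3.91%), 1.89% of 5305 lincRNA genes, 1.86% of 9849 processed pseudogenes and 1.18% of 1953 unprocessed ones. Of 1015 RefSeq enhancers 44 lay inside, and of 610 elements of the VISTA enhancer collection 24 did. For comparison, the insides made up 1.70% of the chromosomes and held 4.03% of protein-coding start sites. A single interval, that of Zfpm1 and Trhr2 on chromosome 8, held 12 RefSeq enhancers, so these counts are not of independent places. A RefSeq enhancer was present in 28 small intervals (6.56%, against 8.05% of all intervals), 4 of which held no start site (0.937% against 1.33%).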
